A study of Mus musculus with 14 samples.

Results

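The SR proteins and the heterogeneous nuclear ribonucleoproteins (hnRNPs) are the large families of RNA-binding proteins that steer the choice of splice sites. Their genes were taken by name from the deposited gene table, as every row named Srsf with a number or beginning with Hnrnp, leaving out pseudogene and antisense names. The rule gave 31 of 27781 named genes, 11 of the SR family and 20 of the hnRNP family, and all 31 passed the filter on low values (7 libraries or more with a value of at least 1). The study isolated neuronal nuclei from the medial entorhinal cortex (MEC), a parahippocampal area whose neurons code position, and compared young with aged mice beside electrophysiological recordings. There were 7 young and 7 aged SmartSeq libraries of total RNA. The labels describe both groups only as young or aged MEC brain, and strain, sex, age in months and how nuclei were isolated are not stated there or in any source used here. They do not tie libraries to separate mice, so a p-value here covers the spread between libraries, which may be technical in part.

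SR proteins carry RNA recognition motifs and a domain rich in arginine and serine, whose phosphorylation moves them between nuclear speckles and pre-mRNA. Bound to exonic enhancers, they recruit the spliceosome and mostly favour exon inclusion. hnRNPs coat nascent transcripts and often block splice sites, so that the balance between the families sets many alternative exons. Several members also travel to the cytoplasm, where they act in RNA export, decay, translation and, in neurons, transport into dendrites and axons. Many SR and hnRNP genes limit their own output through exons or introns that send the transcript to nonsense-mediated decay.

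Values are the authors' normalized values per gene, and the depth of a library is unknown. Before age is considered, the libraries fell into sets by Xist, the RNA of the inactive X chromosome, with values of 7378 to 25459 in 7 libraries and 0 to 5.13 in the other 7. The first set, called Xist-positive here, held 2 young libraries (numbers 2 and 3) and 5 aged ones (3 to 7), and the second, called Xist-negative, held 5 young (11, 16, 17, 18 and 19) and 2 aged ones (12 and 13). Xist-positive libraries had 21152 to 22812 genes above 0 and Xist-negative ones 25263 to 25615. Age differences are therefore given over all libraries and again with the library set as a second term, and where the values call for it within each set. The difference in either fit is the aged mean less the young mean of log2(value + 1), from limma with Benjamini-Hochberg adjustment over all 24554 genes kept. In bulk nuclei, fewer cells of a type and less RNA per nucleus cannot be told apart.

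No SR or hnRNP gene passed an adjusted p of 0.05 in either fit, where 0.00407% of all genes passed with age alone and 0.00815% with the library set. An unadjusted p under 0.05 was reached by 2 of 31 members in each fit (6.45%), against 24.1% and 13.1% of all genes. With age alone these were Hnrnpab and Srsf2, and with the library set Hnrnpab and Hnrnph1. Differences were positive in 19 of 31 members with age alone and in 12 of 31 with the library set, against 37.2% and 37.5% of all genes. The median difference of the 11 SR genes was 0.04 with age alone and -0.07 with the set, that of the 20 hnRNP genes 0.12 and -0.08, and that of all genes tested -0.25 and -0.16. With age alone and each library left out in turn, the SR median ran from -0.019 without young library 19 to 0.24 without young library 2, and the hnRNP median from 0.05 to 0.16. Over the 15865 genes with a value of 100 or more in 7 libraries, a filter that all 31 members also passed, the median of all genes with age alone was -0.0096. In no member did the age groups fail to overlap, against 0.212% of all genes. Of the 31 members 1 (3.23%) had, in the authors' deposited table, an adjusted p under 0.05, against 2.41% of the genes with an adjusted p. That member was Hnrnpab. Fold changes in the authors' deposited table were positive in 12 of the 31 members, the number found with the library set, while age alone gave 19. The share of all genes positive in that table is not given here. The terms of the authors' model are not known, so their calls cannot be read as a comparison made without the set.

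**Figure D1:**
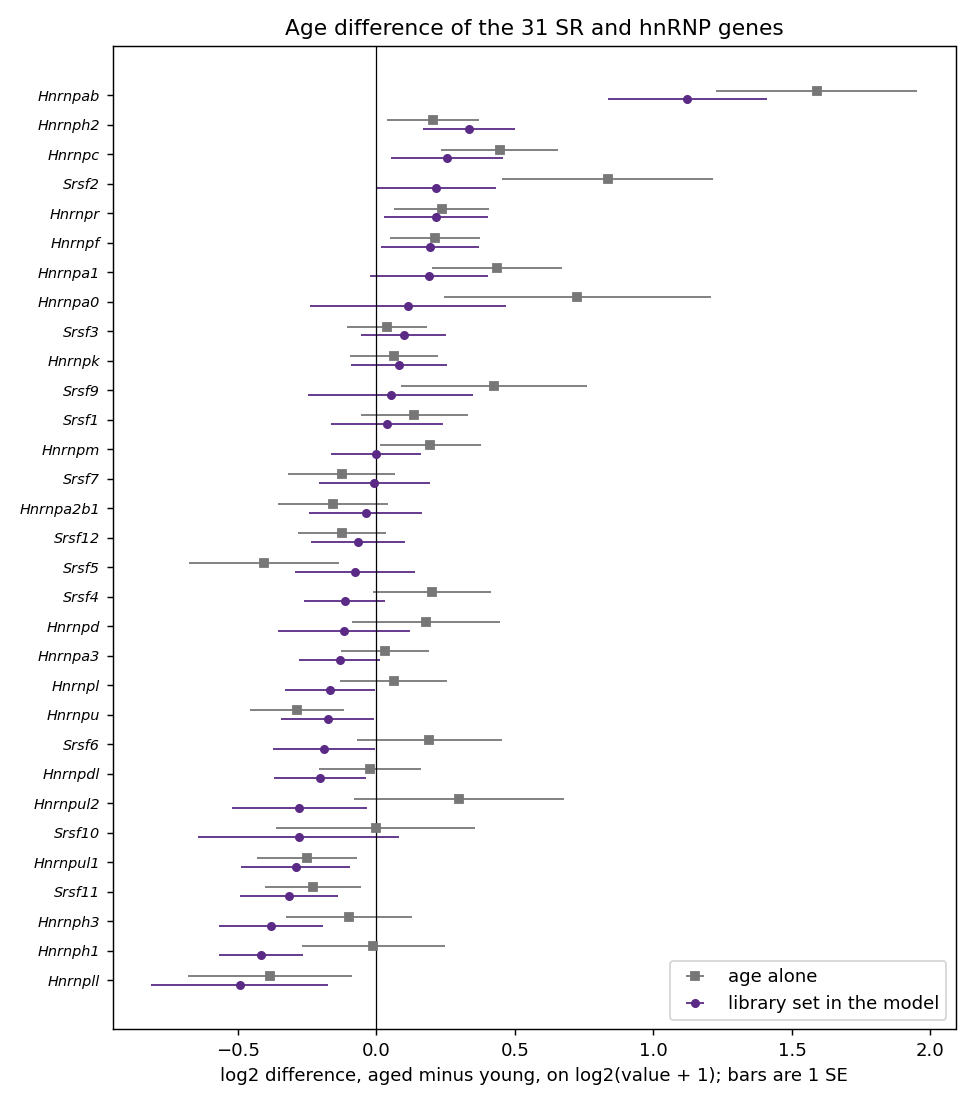
Log2 difference between aged and young libraries (x axis, aged less young, of log2(value + 1)) for the 31 genes (y axis), with bars of 1 SE, from the fit with age alone (grey squares) and with the set as a further term (purple circles). Hnrnpab stands at 1.59 and 1.12, and the other 30 genes lie between -0.41 and 0.83 with age alone and between -0.49 and 0.33 with the set.

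The hnRNP A/B and D types share paired RNA recognition motifs and a glycine-rich tail. Hnrnpab encodes a protein that binds trafficking elements of messages carried into dendrites. It lay at 101.0, 142.6 and 586.5 (lowest, median and highest normalized value) in young libraries and at 287.6, 661.1 and 710.3 in aged ones. The 5 aged Xist-positive libraries held 566.0, 619.3, 661.1, 675.9 and 710.3, and the 2 young ones of that set 328.3 and 586.5, so the groups overlapped there by a single library. In the Xist-negative set the 5 young libraries held 101.0, 135.5, 139.5, 142.6 and 186.2 and the 2 aged ones 287.6 and 700.9, so every aged library was above every young one. That order rests on 2 aged libraries, and the share of all genes with it in this set is not given here. Young libraries averaged 231 ± 173 and aged ones 603 ± 148 (SD, n = 7 in either group). The log2 difference was 1.59 (SE 0.36, limma adjusted p = 0.133) with age alone and 1.12 (SE 0.29, limma adjusted p = 0.171) with the library set. It was 0.55 (SE 0.29) within the Xist-positive and 1.69 (SE 0.44) within the Xist-negative libraries, and the age-by-set term had a limma unadjusted p = 0.0445 and adjusted p close to 1. For Hnrnpab the authors' deposited table holds 1.15 as the log2 fold change, with SE 0.31 and an adjusted p of 0.0116. Without the young library 3 or the aged library 12 the limma adjusted p with age alone was 0.0134 or 0.0387. In these fits 115 and 2381 of 24554 genes passed the adjusted threshold, against 1 gene with all libraries. Both libraries belong to the less frequent set of their age group, so leaving either out brings age closer to the library set. The part of the set in these lower p-values was not tested. Over all 14 fits with a library left out, the limma adjusted p of Hnrnpab with age alone ran from 0.0134 to 0.295. With the set term the difference ran from 0.74 to 1.43 and the limma adjusted p from 0.0904 to 0.451.

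Hnrnpab spans chr11:51600100-51606847 on the minus strand of mm10. Over 4390 bases it overlaps Phykpl, a gene on the opposite strand, and no source used here states whether reads were counted by strand. Phykpl had a mean of 945 in young and 782 in aged libraries and log2 differences of -0.28 and -0.12 in the same fits, opposite in sign to Hnrnpab. The promoter of Hnrnpab is shown because this gene had the largest age difference of the family. It is the RefSeq window from 250 bases before to 50 after the start (GRCm38.p6, chr11:51606832-51607131, minus strand), with matches on either strand in capitals: the CCAAT box (CCAAT), the GC box (GGGCGG) and the TATA box (TATAAA), none of which overlap here.
Hnrnpab: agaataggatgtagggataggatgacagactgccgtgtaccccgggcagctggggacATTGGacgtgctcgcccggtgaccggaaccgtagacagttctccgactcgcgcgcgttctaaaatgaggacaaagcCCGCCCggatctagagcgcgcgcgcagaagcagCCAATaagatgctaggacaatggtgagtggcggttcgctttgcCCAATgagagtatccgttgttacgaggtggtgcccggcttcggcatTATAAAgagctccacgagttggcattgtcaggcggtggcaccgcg
The window held 3 CCAAT matches at positions -193, -84 and -41, counted from the RefSeq start, and a TATAAA match at position 6, after that start. Counted from the GENCODE start of the gene, the CCAAT matches begin 227, 118 and 75 bases before it and the TATAAA match 29 bases before it. CCAAT was found in 16 of 29 member promoters (55.2%) and in 37.8% of all 27025 promoters, and TATAAA in 4 of 29 members (13.8%, in Hnrnpab, Hnrnpm, Srsf2 and Srsf3) and in 14.1% of all. For a member the window nearest the GENCODE gene start was used. For all promoters it was the window of lowest coordinate of each gene, whether or not the gene had a value here, so the shares are not like for like.

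The other A/B and D genes showed smaller differences. Hnrnpa1, which represses exons by binding silencers, lay at 319.4, 519.5 and 889.9 in young and 456.9, 748.3 and 927.9 in aged libraries, with log2 differences of 0.43 (SE 0.23) with age alone and 0.19 (SE 0.21) with the set. Hnrnpa0 was the lowest member, at 30.1, 67.9 and 199.1 in young and 52.8, 137.5 and 202.0 in aged libraries. Its log2 difference of 0.72 with age alone was 0.11 with the set. All 7 Xist-positive libraries held 129.7 to 202.0 of Hnrnpa0 and the 7 Xist-negative ones 30.1 to 100.2. Hnrnpa2b1, which binds the dendritic trafficking element, had log2 differences of -0.16 and -0.04, and Hnrnpa3 of 0.03 and -0.13. Hnrnpd, a binder of AU-rich elements in unstable messages, had 0.18 and -0.12, and its relative Hnrnpdl -0.02 and -0.21.

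The F and H proteins bind runs of guanines beside splice sites. Hnrnph1 was the only member in which aged libraries lay below young ones within both sets, a pattern found in 1.2% of all genes. In the Xist-positive set its young libraries held 6980 and 7037 and its aged ones 3793, 3863, 4617, 5055 and 6046. In the Xist-negative set the young libraries held 2745, 2957, 3134, 3514 and 3666 and the aged ones 2695.5 and 2742, so that the nearest libraries there were almost level. Over all libraries the groups overlapped, at 2745, 3514 and 7037 in young and 2695.5, 3863 and 6046 in aged ones. The log2 difference was -0.01 (SE 0.26) with age alone and -0.42 (SE 0.15, limma unadjusted p = 0.0142, adjusted p = 0.283) with the set, and it was -0.61 and -0.23 within the sets. The authors' deposited table gives -0.41 (adjusted p = 0.105).

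Hnrnph2, an X-linked paralog of Hnrnph1, had differences of the opposite sign. It lay at 1025, 1392 and 1545 in young and at 1239, 1365 and 2314 in aged libraries, where library 13 stood above the rest. In the Xist-positive set both young libraries lay below every aged one, and in the Xist-negative set the groups overlapped. The share of all genes with that order in the Xist-positive set is not given here. The log2 difference was 0.21 (SE 0.17) with age alone and 0.33 (SE 0.17, limma adjusted p = 0.402) with the set, and 0.35 and 0.32 within the sets. Hnrnph3 lay at 1539, 2017 and 4733 in young and at 1585, 1917 and 2935 in aged libraries, with log2 differences of -0.10 and -0.38. It overlaps Rufy2 on the opposite strand, which had 0.21 and -0.11. Hnrnpf, their relative, had 0.21 and 0.19. In the authors' deposited table the H genes had log2 fold changes of -0.41, 0.37 and -0.42 for Hnrnph1, Hnrnph2 and Hnrnph3, with adjusted p of 0.105, 0.226 and 0.247.

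The ratio of Hnrnph1 to Hnrnph2 inside a library does not depend on a scale factor shared by all genes of that library. No source used here states whether the normalization also used factors for single genes. The ratio was chosen after the values were seen and is given without a test. It was 6.08 and 6.81 in the young Xist-positive libraries and 2.76 to 4.43 in the 5 aged ones of that set. In the Xist-negative set it was 1.91 to 2.58 in the 5 young libraries and 1.18 and 2.18 in the 2 aged ones, which overlapped. No source used here states how reads that match both paralogs were assigned.

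**Figure D2:**
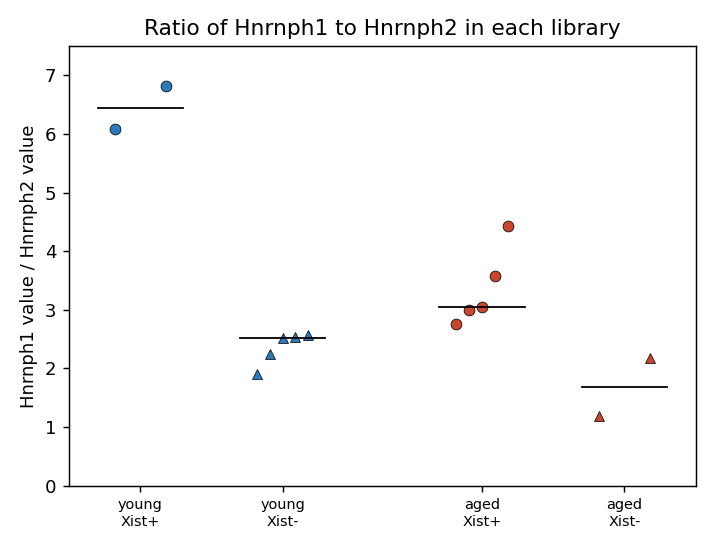
Ratio of the Hnrnph1 to the Hnrnph2 normalized value (y axis) in each of the 14 libraries, by age and library set (x axis), with a line at each median. The 2 young Xist-positive libraries stand at 6.08 and 6.81, above the 5 aged ones of that set at 2.76 to 4.43, while the Xist-negative groups overlap.

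The promoters of the paralogs are shown to compare the genes whose differences had opposite signs. Both are RefSeq windows on the plus strand of GRCm38.p6, chr11:50376740-50377039 for Hnrnph1 and chrX:134600929-134601228 for Hnrnph2, with CCAAT and GGGCGG matches on either strand in capitals.
Hnrnph1: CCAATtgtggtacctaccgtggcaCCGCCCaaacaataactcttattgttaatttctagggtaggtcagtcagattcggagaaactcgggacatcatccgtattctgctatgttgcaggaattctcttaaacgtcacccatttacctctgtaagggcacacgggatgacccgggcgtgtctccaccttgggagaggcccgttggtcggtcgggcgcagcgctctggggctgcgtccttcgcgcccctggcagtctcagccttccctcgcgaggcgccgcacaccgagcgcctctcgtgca
Hnrnph2: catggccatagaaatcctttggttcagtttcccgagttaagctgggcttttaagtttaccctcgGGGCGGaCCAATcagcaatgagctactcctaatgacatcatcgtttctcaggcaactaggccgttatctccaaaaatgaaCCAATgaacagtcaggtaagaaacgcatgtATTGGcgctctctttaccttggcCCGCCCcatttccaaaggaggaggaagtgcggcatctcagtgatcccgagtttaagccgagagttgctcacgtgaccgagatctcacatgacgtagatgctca
The Hnrnph1 window held 1 CCAAT match, at -250, and 1 GGGCGG match, at -226. The Hnrnph2 window held 3 CCAAT matches, at -179, -106 and -76, and 2 GGGCGG matches, at -186 and -53. GGGCGG was found in 23 of 29 member promoters (79.3%) and in 35.6% of all promoters. Of the 31 members 29 had a promoter window. Their median content of G and C was 68.3% against 52.7% in all promoters, and their median number of CG pairs 31 against 7. Windows were chosen as for the CCAAT shares, so members with values here are set against all genes, with or without values.

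**Figure D3:**
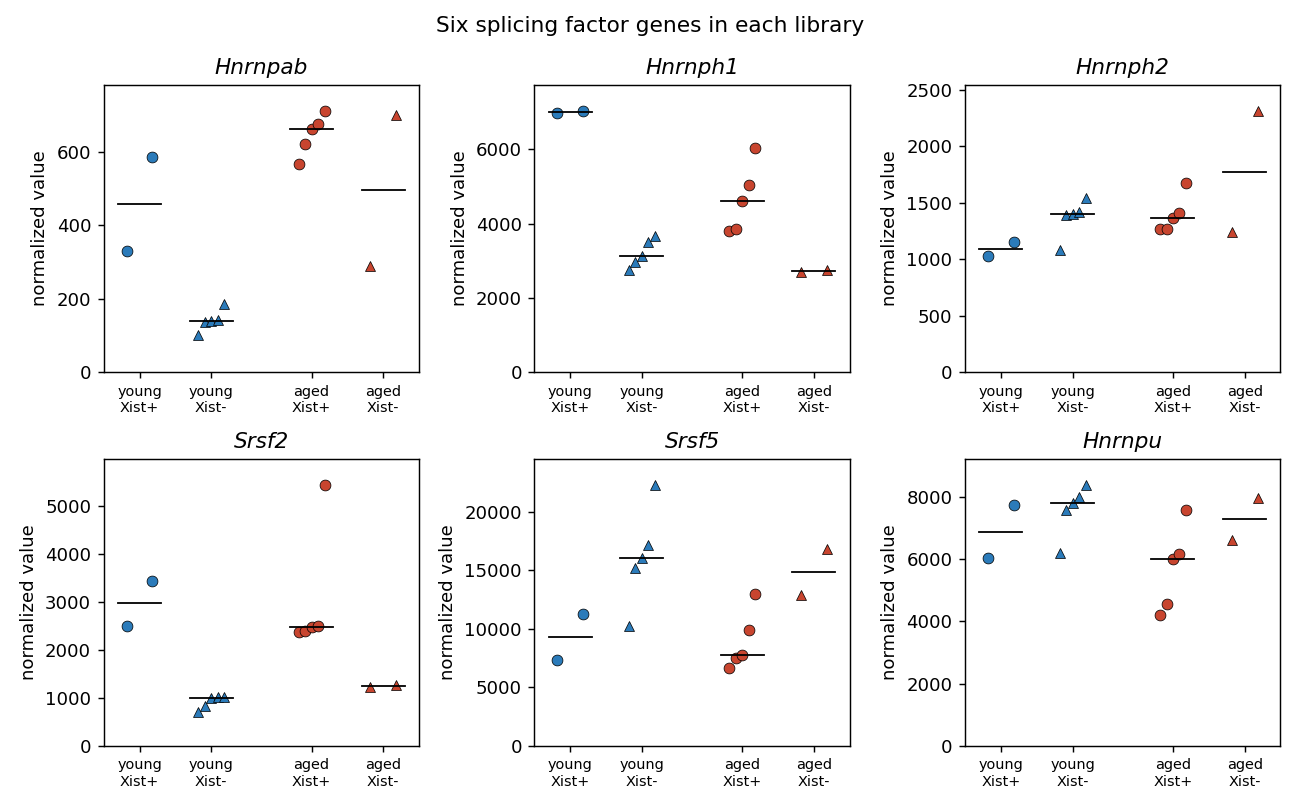
Normalized value (y axis, from 0) of 6 genes in each library, by age and library set (x axis), with a line at each median, circles for Xist-positive and triangles for Xist-negative libraries. Hnrnpab is lowest in the 5 young Xist-negative libraries (101.0 to 186.2), Srsf2 follows the library set (2379 to 5437 against 711 to 1267), and in Srsf5 and Hnrnpu young and aged libraries overlap.

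None of the remaining hnRNP genes passed the test in either fit. Hnrnpc, whose protein binds uridine tracts as a tetramer, lay at 806, 1136 and 1831 in young and 1223, 1703 and 2132 in aged libraries, with log2 differences of 0.44 (SE 0.21, limma adjusted p = 0.207) and 0.25 (SE 0.20). Hnrnpu, a scaffold protein that tethers Xist to chromatin, lay at 6020, 7750 and 8387 in young and 4214, 6175 and 7951 in aged libraries, with -0.29 (SE 0.17) and -0.18 (SE 0.17). Over 1586 bases Hnrnpu overlaps Cox20 on the opposite strand, whose mean was 259 in young and 469 in aged libraries. Hnrnpll, known for splicing of Ptprc in lymphocytes, lay at 1538, 2300 and 4386 in young and 897.5, 2299.5 and 3629 in aged libraries, with -0.38 (SE 0.30) and -0.49 (SE 0.32). The medians of Hnrnpll were thus alike while single libraries lay far apart. Hnrnpk, which binds C-rich RNA, had log2 differences of 0.06 and 0.08, and Hnrnpr, which carries beta-actin message in axons, 0.23 and 0.21. Hnrnpl, a binder of CA repeats, had 0.06 and -0.17, and Hnrnpm 0.19 and 0.00. The Hnrnpu relatives Hnrnpul1 and Hnrnpul2 had -0.25 and 0.30 with age alone and -0.29 and -0.28 with the set.

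None of the 8 classical SR genes passed the test in either fit, and the largest difference with age alone was that of Srsf2. Srsf2, whose protein binds exonic enhancers and sits in nuclear speckles, lay at 711, 1009 and 3434 in young and 1228, 2384 and 5437 in aged libraries. Its Xist-positive libraries held 2379 to 5437 and its Xist-negative ones 711 to 1267, without overlap, and the ratio of the set means was 2.99. The log2 difference of 0.83 with age alone (SE 0.38, limma adjusted p = 0.199) was 0.21 (SE 0.22, adjusted p = 0.677) with the set, and -0.03 and 0.46 within the sets. Srsf2 overlaps Mettl23 over its whole 3194 bases and Mfsd11 in part, both on the opposite strand. Mettl23 had means of 514 in young and 591 in aged libraries and Mfsd11 of 1915 and 2215.

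Srsf5 was the most abundant member both by value and per length, at 3119 per kb of annotated exon, against 43.7 for Hnrnpa0 at the other end and 927 for Hnrnpdl in second place. It lay at 7299, 15175 and 22324 in young and 6680, 9872 and 16800 in aged libraries. Its log2 difference of -0.41 (SE 0.27) was -0.08 (SE 0.22) with the set, and the Xist-positive libraries averaged 0.574 times the Xist-negative ones. Srsf6 lay at 924, 1490 and 2607 in young and 1073, 1989 and 2907 in aged libraries, with log2 differences of 0.19 and -0.19. Srsf9 lay at 557, 794 and 2333 in young and 716, 1248 and 2898 in aged libraries, with 0.42 and 0.05. Srsf1, the prototype of the family, had 0.14 and 0.04, and Srsf3, which also serves RNA export, 0.04 and 0.10. Srsf4 had 0.20 and -0.11, and Srsf7, the member with a zinc knuckle, -0.13 and -0.01. Within the Xist-positive libraries the differences of all 11 SR genes were negative, from -0.44 to -0.03, where 59.1% of all genes were negative. The young side of that fit was libraries 2 and 3 alone, and the 11 genes share them, so these signs are not independent. Young library 2 was the highest of the 14 libraries in 3 of the 11, against 12.2% of all genes. Within the Xist-negative libraries 5 of the 11 SR genes were negative, against 62.2% of all genes. No member passed the adjusted threshold within a set, where 0% and 0.0204% of all genes did. An unadjusted p under 0.05 was reached by Hnrnph1 in the Xist-positive libraries, where 8.68% of all genes had one, and by Hnrnpab and Hnrnpr in the Xist-negative ones, where 5.45% did.

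The SR-like genes code for proteins that can repress as well as activate. Srsf11, which takes part in neuronal microexon splicing, lay at 5474, 6205 and 10131 in young and 4051, 5638 and 7378 in aged libraries, with log2 differences of -0.23 (SE 0.17) and -0.32 (SE 0.18, limma adjusted p = 0.449). Srsf12, the lowest SR gene, lay at 651.5, 701.9 and 887.8 in young and 491.4, 675.7 and 845.4 in aged libraries, with -0.12 and -0.07. Srsf10, a repressor when dephosphorylated, had differences of 0.00 and -0.28. Its values were spread by single libraries, with 5596 in young library 2 and 6517 in aged library 5 against a young median of 1787 and an aged median of 1991.

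The library sets separated some members fully, as the age groups did in none. Every Xist-positive library lay above every Xist-negative one in 5 of 31 members (16.1%), namely Srsf2, Srsf4, Hnrnpa0, Hnrnph1 and Hnrnpul2, against 4.88% of all genes. No member lay below in every library, against 23% of all genes. The ratio of the set means ran from 0.574 in Srsf5 to 2.99 in Srsf2, and Hnrnpa0 (2.66), Hnrnpab (2.45) and Hnrnpul2 (2.35) were the next highest. Sex and preparation are not given in the labels, and what separates the sets cannot be told apart here. Young library 2 was the highest of the 14 libraries in 11 of 31 members (35.5%), against 12.2% of all genes. Without it no member passed the adjusted threshold with age alone, and the limma adjusted p of Hnrnpab was 0.0803.

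**Figure D4:**
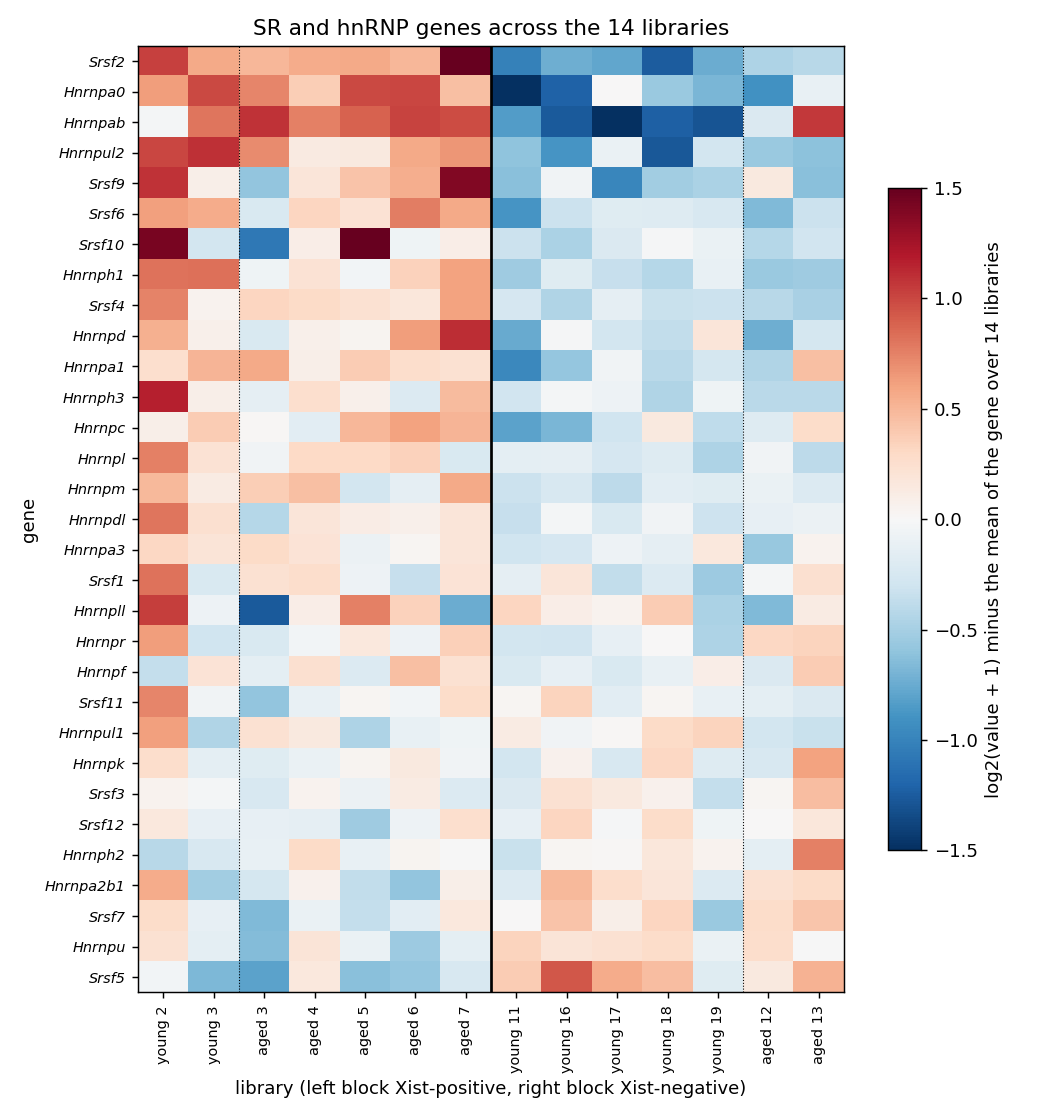
Value of each of the 31 genes (rows, ordered by the ratio of the set means) in each library (columns), as log2(value + 1) minus the mean of the gene, with the strongest colours at differences of 1.5 either way. The Xist-positive block on the left is higher in the top rows, from Srsf2 at a ratio of 2.99, and mostly lower in the bottom row, Srsf5 at 0.574, and young library 2 is the highest library in 11 of the rows.

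The genes lie on 16 chromosomes, with Hnrnph2 the only one on the X. Their spans run from 2678 bases in Hnrnpa0, a gene with a single exon, to 48506 in Hnrnpr. GENCODE M21 lists a transcript subject to nonsense-mediated decay for 9 of the 11 SR genes and 10 of the 20 hnRNP genes, and a retained-intron transcript for 22 of the 31. The value of a gene sums its transcripts, so productive and decay-bound forms in these nuclei were not separated here.

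Other splicing genes were described from lists chosen for this purpose, and none of their members passed an adjusted p of 0.05 in limma in either fit. The SR-related coactivators, which bridge SR proteins and the spliceosome, were negative in 7 of 14 with age alone and in 13 of 14 with the library set, against 62.8% and 62.5% of all genes. Their median was 0.00 and -0.36, and 8 of the 14 had an unadjusted p under 0.05 and a negative difference with the set, against 9.03% of all genes. The 14 genes share the same libraries, of which only 2 are both young and Xist-positive, so these are not independent results. No fit with a library left out is given for this list. The same count for the other lists is given after them. Srrm2, a core protein of nuclear speckles, lay at 13517, 15562 and 21974 in young and 9275, 10870 and 14694 in aged libraries. Its log2 difference was -0.55 (SE 0.18, limma adjusted p = 0.182) with age alone and -0.59 (SE 0.18) with the set. Sfswap, a regulator that also controls its own splicing, had -0.34 and -0.70 (SE 0.17, limma adjusted p = 0.152), and Luc7l2, a U1 snRNP-associated protein, 0.03 and -0.85 (SE 0.22). Luc7l had -0.28 and -0.35. Of these 14 genes 3 had an adjusted p under 0.05 in the authors' deposited table, against 2.41% of all genes there, namely Sfswap at a log2 fold change of -0.73, Luc7l2 at -0.83 and the speckle protein Son at -0.48.

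The kinases and importins of SR proteins were positive in 6 of 10 with age alone and in 3 of 10 with the set (medians 0.04 and -0.27). For this and the lists below, 37.2% and 37.5% of all genes were positive in the same fits. Clk1, a nuclear SR kinase, had log2 differences of 0.27 and 0.33, the importin Tnpo3 -0.21 and -0.26, Srpk1 0.29 and -0.41 and Dyrk1a 0.22 and -0.39. Neuronal splicing regulators were positive in 12 of 22 and 5 of 22 (medians 0.07 and -0.31). Celf3, a neuronal CUG-binding protein, lay at 1438, 1791 and 2365 in young and 1002, 1281 and 1622 in aged libraries, with -0.52 (SE 0.16, limma adjusted p = 0.182) and -0.61 (SE 0.17, adjusted p = 0.214). The authors' deposited table gives Celf3 a log2 fold change of -0.59 (adjusted p = 0.0363). Mbnl3 had -2.36 (SE 0.84) and -1.39, at low values with a young median of 287 and an aged median of 54.2, and Elavl3 had 0.11 and -0.48.

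Genes of hnRNP-like proteins under other names were positive in 13 of 18 and 6 of 18 (medians 0.14 and -0.10). Pcbp1, which like Hnrnpk binds C-rich RNA, had log2 differences of 0.50 and 0.29, Ralyl 0.62 and 0.47, and Pcbp2 0.01 and -0.37. Genes of the U snRNPs and U2AF were positive in 24 of 32 and 18 of 32 (medians 0.17 and 0.06). The U4/U6 protein gene Prpf4 had -0.36 and -0.31, the U2 protein gene Sf3b6 0.65 and 0.36, and the U5 gene Eftud2 -0.10 and -0.45. The median of each of these 5 lists was lower with the set term than with age alone, while that of all genes was -0.25 and -0.16. With the set, a limma unadjusted p under 0.05 and a negative difference were also found outside the coactivators. They were found in 5 of 22 neuronal regulators, 2 of 10 kinases and importins, 1 of 18 hnRNP-like genes and 2 of 32 U snRNP and U2AF genes. Of all genes 9.03% had both, so such differences were not particular to the coactivators.

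The neuronal identity of the nuclei was looked at with 7 neuronal markers, whose summed value was 122659 to 167297 in young and 109851 to 199184 in aged libraries. They were positive in 6 of 7 with age alone and 5 of 7 with the set. The 22 markers of 5 other cell types were present, and none was at 0 in any library. Oligodendrocyte markers summed to 3060 to 8910 in young and 4664 to 16245 in aged libraries and were positive in 4 of 5 with age alone and 5 of 5 with the set. Astrocyte markers summed to 9133 to 20926 and 6343 to 28598 and were positive in 5 of 6 in both fits. Microglial markers summed to 669 to 3348 and 756 to 4408 and were positive in 4 of 6 and 6 of 6. Oligodendrocyte precursor markers summed to 100 to 1392 and 99.5 to 1349 and were positive in 1 of 2 in both fits. Endothelial markers summed to 324 to 2102 and 197 to 1451 and were positive in 0 of 3 and 1 of 3, with a median difference of -0.76 and -0.23. Sums by set, Xist-positive first, were 669 to 1768 and 1492 to 4408 for microglia and 99.5 to 660 and 586 to 1392 for precursors. They were 197 to 1051 and 658 to 2102 for endothelium and 6343 to 28598 and 9133 to 14297 for astrocytes. For oligodendrocytes they were 3131 to 16245 and 3060 to 15671, and for neurons 135200 to 199184 and 109851 to 163852. Of all genes 37.2% and 37.5% were positive in these fits. The part of these cell types in the values of Hnrnpab and the other members was not tested.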

How the data were processed

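SmartSeq RNA sequencing of MEC neuronal nuclei gave 7 young and 7 aged libraries, grouped by their titles and named by title number. Per the submitters' processing notes the tools were DESeq2, kallisto and STAR and the genome was mm10, with no roles given. The authors deposited 1 table. Its library columns hold the authors' normalized signal per gene. In the library columns 21.2 to 31.3% of values under 20 lay within 0.05 of a whole step, so reads could not be recovered, depth is unknown and no count model was used. The log2 fold change, the statistic (a score), the p-value and the adjusted p-value deposited by the authors were used only as the authors' comparison, whose model terms are not given. A row without a name (0.043 to 0.221% of a library) and the Recording row were left out, and 27 date-like names were not reassigned.

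Computed here: limma 3.58.1 (R 4.3.3; lmFit, eBayes with trend) on log2(value + 1), age as the only term, then with the library set (Xist above 1000 or not), which is not a label. The scale understates changes of low genes. Only the fit with the library set was tried on simulated data, with independent normal errors. The fit with age alone and outlying libraries were not simulated. Alternatives covered the pseudocount, filter, scaling, weights, sets and each library left out. Tables were made with Python 3.11.15, numpy 2.4.6 and pandas 2.3.3. The members, lists and library sets were chosen with earlier results of these data known. Every member is named; lowest, median and highest values are given for the 5 SR and 8 hnRNP genes with the smallest p in either fit, the authors' call, and the highest and lowest gene of each family; other lists are named by their 2 smallest p in a fit, and a gene so chosen is not reported here. Son, the library values of Srsf10, Luc7l2 and Sfswap and the ratio were singled out after their values were seen. Positions and transcripts come from GENCODE M21 (mm10) and promoters from RefSeq (GRCm38.p6).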

Additional observations from a re-analysis of the deposited data

Results flagged for a closer look

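A library was picked out where it was the highest or lowest of its 7 and its gap to the nearest other library, divided by the range of the group, was above Dixon's critical value. Of 62 groups (31 genes in 2 age groups) 13 had such a library. Chance flags about 1 in 20 groups of independent normal values, but these genes share their libraries and each age group mixes the library sets. No share over all genes is given here, so the count is not a result particular to these genes.

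Young library 2 stood above the other young libraries in 7 genes. It held 7626 of Hnrnpdl, 4733 of Hnrnph3, 4437 of Hnrnpr, 6051 of Srsf1, 5596 of Srsf10, 2711 of Srsf4 and 2333 of Srsf9. It is 1 of the 2 young Xist-positive libraries, so within that set each young value rests on it and young library 3.

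Among aged libraries, number 7 stood above the others at 5437 of Srsf2 and 2898 of Srsf9. Number 13, an Xist-negative library, stood above at 2314 of Hnrnph2 and 4953 of Hnrnpk, and number 5 at 6517 of Srsf10. Number 12, the other aged Xist-negative library, stood below the rest at 287.6 of Hnrnpab.

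The age difference of Hnrnpab was 0.55 in Xist-positive and 1.69 in Xist-negative libraries. The test of that difference did not pass the adjusted threshold in limma (adjusted p close to 1), nor did it for any other of the genes tested.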

How the results depend on the processing

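The number of the 31 genes past an adjusted p of 0.05 in limma was 0 with age alone and 0 to 1 when each library was left out, the 1 being Hnrnpab without young library 3 or aged library 12. It was 11 with array weights, which called 13048 of 24554 genes. Young libraries 2 and 3 had weights of 0.275 and 0.382 there, and aged libraries 12 and 13 of 0.299 and 0.416. These libraries hold the less frequent set of their age group, so in that fit age lay close to the library set. Over all genes the count was 1, and 0 to 2381 with a library left out, the highest without aged library 12, then 115 without young library 3. It was 8 with a pseudocount of 10, 15 with a minimum of 100, 52 with equal totals, 25 with equal upper quartiles and 0 without the variance trend (5607 genes at an unadjusted p under 0.05). The median over all genes was -0.25, and -0.0096 with the minimum of 100. With array weights the SR median was 0.21 and the hnRNP median 0.29, and with equal upper quartiles they were -0.025 and 0.06. Pseudocount, filters, equal totals and the variance trend changed no sign and no call of a member. No paired analysis was possible because young and aged libraries share only the number 3. Depth is unknown and limits what low genes can show. The causes of the sign changes below were not tested.

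With the library set in the model 7 signs turned: Hnrnpa3 -0.13, Hnrnpd -0.12, Hnrnpl -0.17, Hnrnpm -0.0013, Hnrnpul2 -0.28, Srsf4 -0.11 and Srsf6 -0.19. In Xist-positive libraries alone 14 turned: Hnrnpa0 -0.095, Hnrnpa1 -0.073, Hnrnpa3 -0.13, Hnrnpk -0.087, Hnrnpl -0.35, Hnrnpm -0.11, Hnrnpr -0.13, Hnrnpul2 -0.60, Srsf1 -0.24, Srsf2 -0.035, Srsf3 -0.082, Srsf4 -0.077, Srsf6 -0.25 and Srsf9 -0.19. In Xist-negative libraries alone 8 turned: Hnrnpa2b1 0.16, Hnrnpa3 -0.13, Hnrnpd -0.25, Hnrnpdl 0.085, Srsf12 0.0083, Srsf4 -0.15, Srsf6 -0.13 and Srsf7 0.29. With array weights Hnrnpdl was 0.21, Hnrnph1 0.42, Hnrnph3 0.20, Srsf10 0.43 and Srsf3 -0.044, and with equal upper quartiles Hnrnpa3 was -0.032, Hnrnpl -0.00019 and Srsf3 -0.025.

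Leaving out each library gave ranges that cross 0 for Hnrnpa3 (-0.017 to 0.13), Hnrnpdl (-0.082 to 0.11), Hnrnph1 (-0.11 to 0.13), Hnrnph3 (-0.19 to 0.087), Hnrnpk (-0.033 to 0.12), Hnrnpl (-0.0097 to 0.19), Srsf10 (-0.28 to 0.24) and Srsf3 (-0.037 to 0.080). In 9 of 31 genes the sign was kept in all planned settings, namely Hnrnpab, Hnrnpc, Hnrnpf, Hnrnph2, Hnrnpll, Hnrnpu, Hnrnpul1, Srsf11 and Srsf5. For this count and the counts of turned signs above, the share over all genes is not given here. Whether they are many or few therefore cannot be told. A kept sign is not a call, and none of the 9 passed the adjusted threshold with age alone over all libraries.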
